A study of Homo sapiens with 6 samples.

Results

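The collagen genes were taken as every entry of the count table whose symbol names a collagen chain, that is COL, a type number, the letter A and a chain number. This rule found 50 entries with 44 gene symbols among 25737 entries with 24462 symbols. COL11A2 accounts for the difference, since it was listed in 7 entries, of which 6 held no read. mRNA was sequenced in A549 cells, a human lung adenocarcinoma line, and in BEAS-2B cells, an immortalized human bronchial epithelial line, both unmodified (wild type per the labels). Each line was sequenced untreated and after 48 h with 1 or 5 ng/mL TGF-β1 in medium with reduced serum per the labels. The study's methods describe no such reduction, and the medium of the untreated cells is not given separately. Each of the 6 conditions was 1 library, so no difference below has a replicate check and no p-value is given. All intervals are 95% intervals that cover counting error only.

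Collagens are trimers of chains that wind into a triple helix, and they form the main protein scaffold of connective tissue. Fibrillar chains build the fibrils that accumulate in scarred lung, whereas type IV chains form the sheet-like network of the basement membrane under epithelia, and the remaining classes link, coat or anchor these structures. TGF-β1 is the best known inducer of collagen genes in fibrosis, acting through SMAD transcription factors.

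Libraries held 4120624 to 7841350 counts. Counts were scaled by TMM factors (trimmed mean of M values) to a common library size, and the result is called the normalized count. Adding 1 to it and taking log2 gives the ND value. To be called higher or lower, a gene needed a fold change (FC) of 2 or more, with 1 or both of the compared libraries reaching an ND value of 7. An ND value of 7 is a normalized count of 127, or 101 to 185 raw counts depending on the library. Since the libraries read the 3′ ends of mRNA, counts were not divided by length and levels of different genes were not ranked. A sum of counts in a bulk culture cannot tell more cells that express a gene from more RNA per cell. At 5 ng/mL the response genes TGFBI and SKIL were called higher in both lines, with TGFBI ratios of 7.64 and 6.08.

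The labelled cell types were checked against marker lists. Of 6 epithelial markers, A549 cells had KRT7 called higher at 5 ng/mL, with normalized counts of 4024, 14155 and 17495 at 0, 1 and 5 ng/mL. KRT8 and CDH1 (E-cadherin) were called lower. Their normalized counts were 7081, 1913 and 1626 for KRT8 and 742, 20.6 and 7.26 for CDH1. KRT18, KRT19 and EPCAM were not called, with ratios of 0.522, 0.172 and 0.0320 at 5 ng/mL. BEAS-2B cells also had KRT7 called higher (1063, 2966 and 2315 raw counts). They held KRT18 (1418, 717 and 806), KRT8 (372, 204 and 175) and KRT19 (46, 5 and 19), none of them called. CDH1 had 2, 0 and 2 raw counts there and EPCAM none. Of 6 alveolar type II markers, SFTPA1, SFTPA2 and SFTPC had no count in any library, and SFTPB and NKX2-1 had at most 8. ABCA3 was called higher in A549 cells, with normalized counts of 83.4, 175 and 176. Of 4 basal bronchial markers, 0, 1 and 0 held a count in BEAS-2B cells.

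Of 7 fibroblast markers, 3 were well above 0 in BEAS-2B cells. THY1 had 1160, 1239 and 1410 counts and PDGFRB 118, 178 and 160, while FAP was called higher there with 15, 162 and 173 counts, 10.9-fold and 13.0-fold above control. DCN, LUM, PDGFRA and DPT had at most 4 counts in any BEAS-2B library. The part of these markers in the collagen levels was not tested.

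Collagen genes took up a larger share of the library in every treated culture. In A549 cells they drew 0.0603% of all counts without TGF-β1 (0.0580 to 0.0627), 0.320% at 1 ng/mL and 0.370% at 5 ng/mL. In BEAS-2B cells the shares were 0.198% (0.194 to 0.203), 1.06% and 1.10%. The summed normalized count was 5.96-fold (5.72 to 6.21) and 7.07-fold (6.78 to 7.37) above the control in A549 cells and 5.85-fold (5.72 to 5.99) and 6.06-fold (5.92 to 6.20) above it in BEAS-2B cells. Both lines had most of the rise at 1 ng/mL. The step from 1 to 5 ng/mL was 1.19-fold (1.16 to 1.21) and 1.04-fold (1.02 to 1.05). COL1A1 weighed on the sum unequally. It drew 3.48%, 13.2% and 9.98% of collagen counts in A549 cells but 28.4%, 55.5% and 54.1% in BEAS-2B cells. Without COL1A1 the sums at 5 ng/mL were 6.59-fold and 3.88-fold above the controls.

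At 1 ng/mL in A549 cells 13 of 50 collagen entries were called higher, against 2.98% of all entries, and 0 were called lower, against 3.43%. At 5 ng/mL 12 were higher and 0 lower in A549 cells, where 4.45% and 4.74% of all entries were called. In BEAS-2B cells 7 were higher and 1 lower at 1 ng/mL (all entries, 1.47% and 2.37%), and 8 were higher and 1 lower at 5 ng/mL (1.92% and 3.04%). The higher calls thus took in 26% and 24% of the collagen entries in A549 and 14% and 16% in BEAS-2B cells. The comparisons at either dose share the control library of the line, so the calls at 1 and 5 ng/mL are not independent of each other. Among the 25 collagen entries with a mean normalized count of at least 10 over the 6 libraries, the log2 FC at 5 ng/mL had a median of 2.07 for A549 and 0.95 for BEAS-2B cells. The medians of all 12882 entries above that level were 0.01 and 0.00. The mean includes the treated libraries, so an entry can pass through the libraries where it is high. COL22A1 passed with 0 counts in the A549 control, and COL11A1 entered the BEAS-2B median with 0 counts in each BEAS-2B library.

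COL1A1, COL5A1, COL27A1, COL4A1, COL4A2 and COL7A1 were called higher in all 4 comparisons with control. These 6 genes belong to the fibrillar, basement membrane and anchoring fibril classes. At 5 ng/mL COL4A4 joined them, and the 7 shared genes were 58.3% of the calls in A549 cells and 87.5% of those in BEAS-2B cells. At 1 ng/mL the 6 shared genes were 46.2% and 85.7% of the calls. Over all entries, the 221 calls shared at 5 ng/mL were 19.3% of those in A549 cells and 44.7% of those in BEAS-2B cells, the 124 shared at 1 ng/mL were 16.2% and 32.8%, and 106 entries were called higher in all 4 comparisons.

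**Figure D1:**
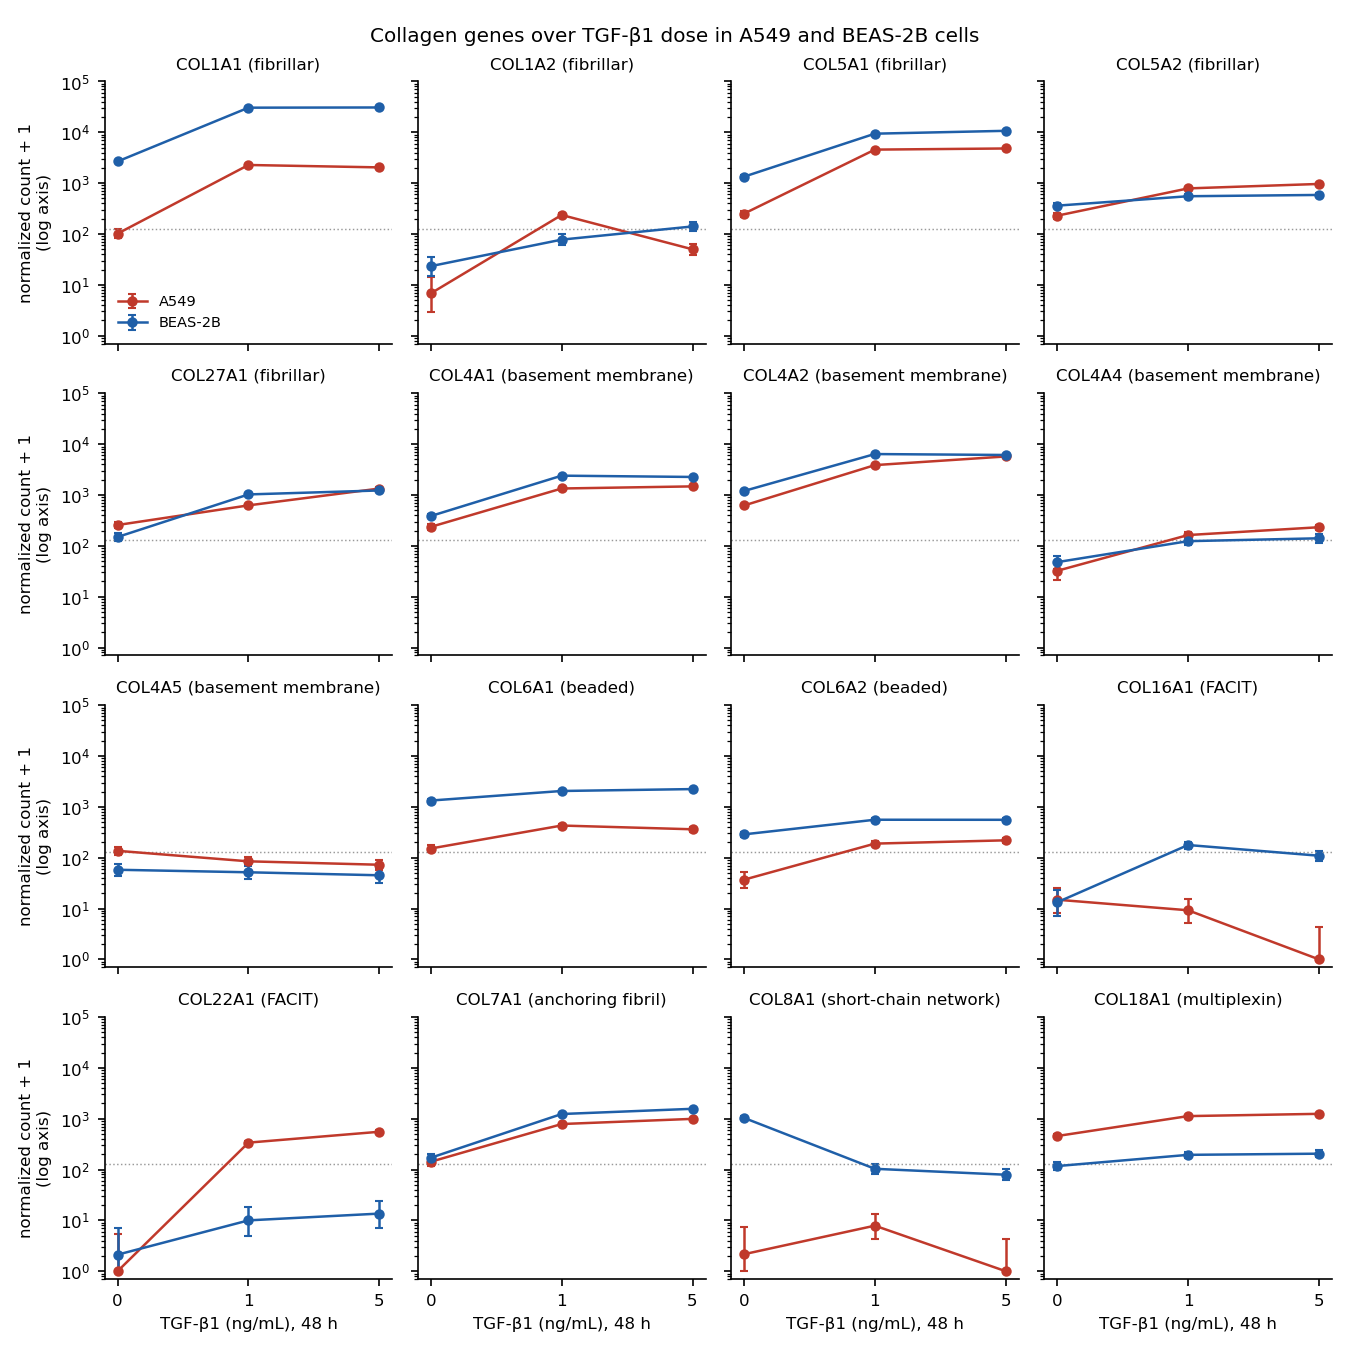
Normalized count plus 1 (log axis) against TGF-β1 dose for the 16 collagen genes that reached an ND value of 7 in any library, with A549 in red, BEAS-2B in blue, bars for exact 95% Poisson intervals and a dotted line at an ND value of 7. Most lines climb between 0 and 1 ng/mL and flatten after it, whereas COL8A1 descends in BEAS-2B cells from 1037 to 78.1 and COL1A2 peaks in A549 cells at 236.

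Type I collagen, the main fibril of scar tissue, is built from the chains of COL1A1 and COL1A2. COL1A1 had normalized counts of 101, 2278 and 2043 at 0, 1 and 5 ng/mL in A549 and 2675, 30555 and 30840 in BEAS-2B cells. The treated libraries were far above the control in both lines, and even treated A549 cells stayed below untreated BEAS-2B cells. The ratios to control were 22.6 (18.3 to 28.3) and 20.3 (16.4 to 25.4) in A549 and 11.4 (11.0 to 11.9) and 11.5 (11.1 to 12.0) in BEAS-2B cells. COL1A2 had normalized counts of 5.79, 236 and 48.99 in A549 cells and 22.3, 76.5 and 140 in BEAS-2B cells. Its dose profile therefore went up and down in A549 and up throughout in BEAS-2B cells. In A549 cells COL1A2 was 40.7-fold above control at 1 ng/mL, with an interval of 17.3 to 126 that reflects a control of 5 raw counts, and 8.46-fold (3.41 to 27.1) above it at 5 ng/mL, where it missed the ND minimum. In BEAS-2B cells its ratios were 3.43 (2.06 to 5.96), not called, and 6.27 (3.87 to 10.7), called except in libraries thinned to equal depth.

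The A549 library at 1 ng/mL stood apart for several genes typical of fibroblasts. It held 53 counts of DCN, 15 of LUM, 25 of THY1 and 13 of PDGFRB, against 2, 0, 4 and 0 in the control and 6, 9, 9 and 1 at 5 ng/mL. The summed normalized count of the 7 fibroblast markers was 16.2, 90.7 and 30.8 over the 3 doses, and 3, 6 and 7 of them held at least 1 count. The same library held the highest A549 counts of COL1A2 (343), COL6A3 (51), COL3A1 (74) and COL11A1 (152). It was also the deepest, with 7841350 counts against 4144476 in the control and 6101351 at 5 ng/mL. Normalized counts at 1 and 5 ng/mL were 36.4 and 5.44 for DCN, 17.2 and 8.17 for THY1 and 8.93 and 0.907 for PDGFRB. LUM differed less, with 10.3 and 8.17. COL11A1 had 104 and 87.1, and its ratio of 5 over 1 ng/mL, 0.834 (0.639 to 1.08), had an interval that held 1. The part of those markers in the collagen values was not tested.

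Type V collagen is the minor chain set that nucleates fibrils and sets their width. COL5A1 had normalized counts of 250, 4571 and 4812 in A549 and 1340, 9408 and 10709 in BEAS-2B cells. Both treated libraries of each line lay far above their control. The ratios at 5 ng/mL were 19.2 (16.8 to 22.1) and 7.99 (7.52 to 8.50). COL5A2, its partner chain, had normalized counts of 228, 788 and 964 in A549 cells, a ratio of 4.23 (3.63 to 4.94) at 5 ng/mL, and 360, 552 and 586 in BEAS-2B cells, where the ratio of 1.63 (1.41 to 1.88) was below the FC minimum.

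COL27A1 encodes a fibrillar chain best known from cartilage. Normalized counts were 256, 625 and 1339 in A549 and 148, 1026 and 1228 in BEAS-2B cells. In A549 cells the gene kept climbing with dose, with ratios of 2.44 (2.10 to 2.84) at 1 ng/mL and 5.23 (4.54 to 6.05) at 5 ng/mL. In BEAS-2B cells the corresponding ratios were 6.92 (5.76 to 8.36) and 8.28 (6.90 to 10.0). The other fibrillar genes stayed below the ND minimum in every library. COL3A1, the type III chain, had 16, 74 and 40 raw counts in A549 and 3, 0 and 6 in BEAS-2B cells, and COL11A1 had 19, 152 and 96 in A549 cells and 0 in each BEAS-2B library. Summed over its 11 genes, the fibrillar class was 10.5-fold (9.77 to 11.3) above control at 5 ng/mL in A549 cells and 9.57-fold (9.26 to 9.88) in BEAS-2B cells. A few genes held most of these sums. At 5 ng/mL COL5A1 had 5304 and COL1A1 2252 of 10295 raw counts in A549 cells. In BEAS-2B cells COL1A1 had 24485 and COL5A1 8502 of 34551.

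**Figure D2:**
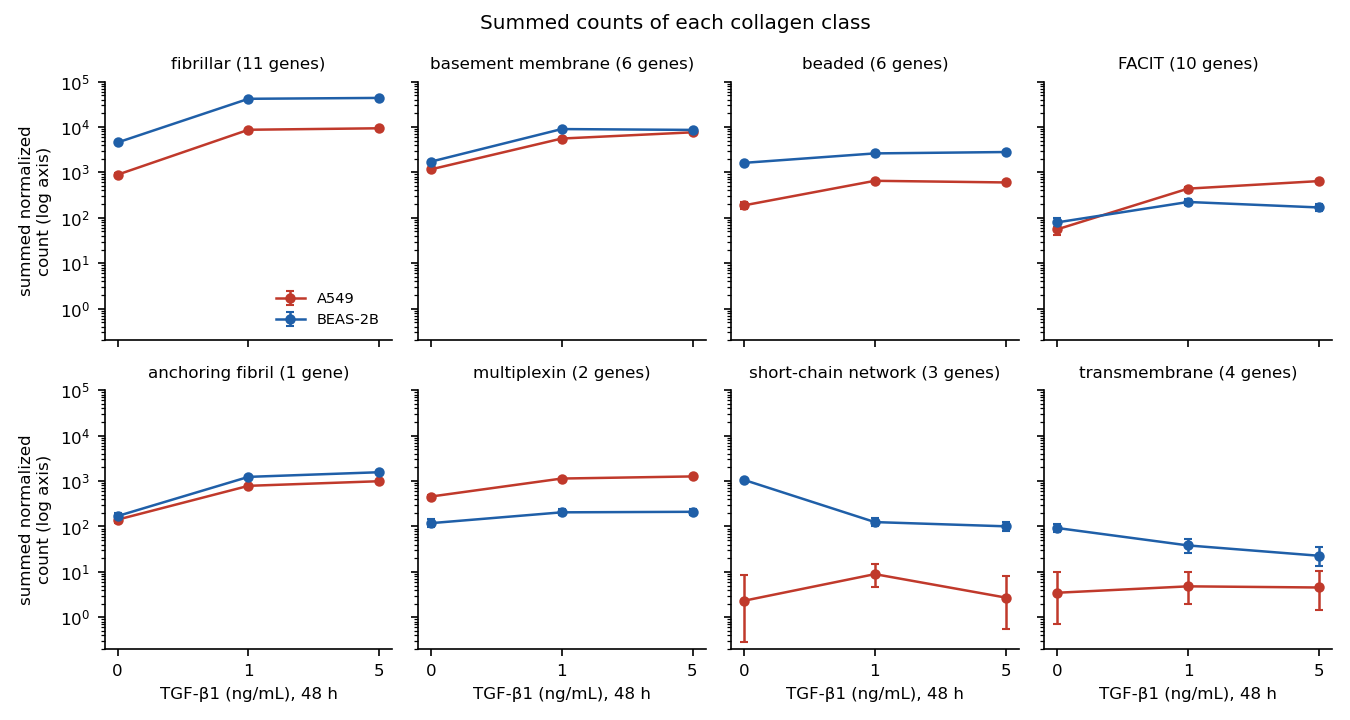
Summed normalized counts (log axis) of each collagen class against TGF-β1 dose, with A549 in red, BEAS-2B in blue and bars for exact 95% Poisson intervals. The fibrillar, basement membrane, beaded, FACIT, anchoring fibril and multiplexin sums lie above control at both doses in both lines. The short-chain network and transmembrane sums descend in BEAS-2B cells, from 1061 to 101 and from 92.6 to 22.7.

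The 6 type IV genes lie in the genome as head-to-head pairs, COL4A1 with COL4A2, COL4A3 with COL4A4, and COL4A5 with COL4A6. The members of a pair are transcribed away from each other from a shared promoter region. In the RefSeq promoter table (GRCh38.p14) the starts of COL4A1 and COL4A2 were 126 bases apart, those of COL4A4 and COL4A3 418 bases apart and the nearest starts of COL4A6 and COL4A5 379 bases apart. The whole stretch between the first pair, and the 250 bases before the starts of COL4A4 and COL4A5, are shown because the 3 pairs had different dose profiles. Capitals mark matches on either strand to GGCGGG, the core of a GC box, or to CAGAC, a core of SMAD-bound elements, and each sequence reads 5′ to 3′ on the strand stated. The matches in these stretches do not overlap each other. The first lies at chr13:110307158-110307283 on the plus strand, the second at chr2:227164206-227164455 on the minus strand and the third at chrX:108439588-108439837 on the plus strand.
COL4A1 to COL4A2: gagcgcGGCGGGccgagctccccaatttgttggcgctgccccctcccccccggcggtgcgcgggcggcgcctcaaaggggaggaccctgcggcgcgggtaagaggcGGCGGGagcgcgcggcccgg
COL4A4 upstream: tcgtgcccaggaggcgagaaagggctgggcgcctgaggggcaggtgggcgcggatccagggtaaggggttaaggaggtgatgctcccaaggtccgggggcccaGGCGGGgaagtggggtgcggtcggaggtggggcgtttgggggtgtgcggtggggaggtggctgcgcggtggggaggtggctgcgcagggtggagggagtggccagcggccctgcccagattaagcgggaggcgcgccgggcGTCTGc
COL4A5 upstream: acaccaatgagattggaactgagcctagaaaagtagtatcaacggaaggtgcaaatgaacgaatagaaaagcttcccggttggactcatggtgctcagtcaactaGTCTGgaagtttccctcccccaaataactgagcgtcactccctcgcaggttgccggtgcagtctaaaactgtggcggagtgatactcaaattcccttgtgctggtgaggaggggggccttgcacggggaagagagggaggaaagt
The stretch between COL4A1 and COL4A2 had a GC content of 80.2%, 2 GGCGGG matches and 0 CAGAC matches. The COL4A4 stretch had 72.8% GC with 1 match of each motif, and the COL4A5 stretch had 51.2% GC with 1 CAGAC match and 0 GGCGGG matches. Windows of 300 bases around a start were found for 32 of the 44 collagen genes (44 windows), and COL1A1 and COL1A2 are among those without one. The median GC content was 63.7% in the collagen windows and 58.7% in all windows. CAGAC occurred in 18 of those windows (40.9%) and in 45.3% of all 35116 windows in the table, and GGCGGG in 27 (61.4%) and in 45.0%. TATAAA, the core of a TATA box, occurred in 8 collagen windows (18.2%) and in 11.5% of all windows. These are matches of letters and say nothing about binding.

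COL4A1 and COL4A2 encode the chains of the common basement membrane network. COL4A1 had normalized counts of 235, 1342 and 1477 in A549 and 385, 2401 and 2265 in BEAS-2B cells. COL4A2 had 621, 3873 and 5733 in A549 and 1199, 6391 and 6132 in BEAS-2B cells. Both genes of the pair were higher in every treated library. At 5 ng/mL COL4A1 was 6.28-fold (5.42 to 7.30) and 5.89-fold (5.24 to 6.62) above control in A549 and BEAS-2B cells, and COL4A2 was 9.23-fold (8.45 to 10.1) and 5.11-fold (4.79 to 5.47) above it. An antisense entry, COL4A2-AS1, held 4, 18 and 32 counts in A549 and 2, 25 and 21 in BEAS-2B cells. The strand setting of the counting is not stated, so reads of COL4A2 and this antisense gene cannot be told apart.

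COL4A3 and COL4A4 encode chains of the specialized network of alveolar and kidney basement membranes. COL4A4 had normalized counts of 31.3, 162 and 231 in A549 cells and 46.8, 123 and 140 in BEAS-2B cells. It was called in both A549 comparisons, with ratios of 5.18 (3.47 to 8.03) and 7.40 (4.96 to 11.4). The A549 call at 1 ng/mL ended in libraries thinned to equal depth. In BEAS-2B cells the ratio of 2.62 (1.82 to 3.83) at 1 ng/mL missed the ND minimum and that of 2.98 (2.08 to 4.36) at 5 ng/mL passed it, though not in libraries thinned to equal depth. COL4A3, below the ND minimum in all libraries, had 12, 89 and 85 raw counts in A549 cells, ratios of 4.40 (2.40 to 8.83) and 5.55 (3.02 to 11.2). In BEAS-2B cells it had 12, 5 and 12 raw counts, and both ratios had intervals that held 1. The pair thus had like profiles in A549 cells, whereas in BEAS-2B cells the COL4A4 interval lay above 1 and the COL4A3 interval did not.

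The X-linked pair, COL4A5 and COL4A6, was not called in any comparison. COL4A5 had normalized counts of 136, 83.8 and 71.7 in A549 cells and 56.9, 50.6 and 44.1 in BEAS-2B cells. Its A549 ratios were 0.618 (0.476 to 0.804) and 0.529 (0.392 to 0.709), and both BEAS-2B intervals held 1. COL4A6 had normalized counts of 124, 25.4 and 19.0 in A549 cells, just under the ND minimum in the control, and 15, 1 and 2 raw counts in BEAS-2B cells. Its treated A549 levels were lower than control by 4.88-fold (3.33 to 7.29) and 6.51-fold (4.05 to 10.9). With scaling by total counts COL4A6 was called lower in A549 cells at both doses and COL4A5 at 5 ng/mL. The sum over the 6 type IV genes was 6.55-fold (6.14 to 7.01) above control at 5 ng/mL in A549 cells and 5.01-fold (4.74 to 5.29) in BEAS-2B cells. COL4A1 and COL4A2 held most of it, so the sum does not describe the other type IV genes. They had 1628 and 6319 of 8387 raw counts at 5 ng/mL in A549 and 1798 and 4868 of 6826 in BEAS-2B cells.

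**Figure D3:**
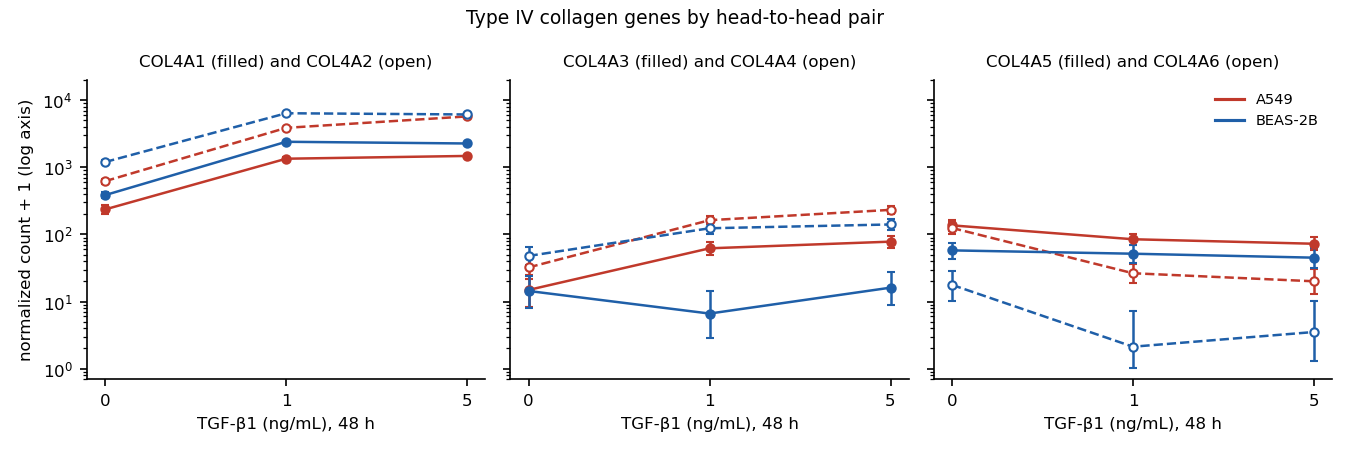
Normalized count plus 1 (log axis) of the type IV genes by pair against TGF-β1 dose, with A549 in red, BEAS-2B in blue, filled points and solid lines for the first gene, open points and dashed lines for the second, and bars for exact 95% Poisson intervals. COL4A1 and COL4A2 climb together in both lines, and COL4A6 descends from 124 to 19.0 in A549 cells.

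COL7A1 encodes the anchoring fibril that ties epithelial basement membranes to the tissue beneath. It had normalized counts of 141, 785 and 992 in A549 and 170, 1235 and 1564 in BEAS-2B cells. The untreated lines had like levels, and all treated libraries lay above their control. The ratios were 5.55 (4.60 to 6.75) and 7.02 (5.81 to 8.53) in A549 and 7.29 (6.15 to 8.69) and 9.23 (7.79 to 11.0) in BEAS-2B cells. The gene was also higher at 5 than at 1 ng/mL by nearly the same ratio in each line, 1.26 (1.16 to 1.37) in A549 and 1.27 (1.17 to 1.37) in BEAS-2B cells.

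Type VI collagen forms the beaded microfibrils around cells. COL6A1 had normalized counts of 151, 428 and 361 in A549 and 1330, 2051 and 2236 in BEAS-2B cells. COL6A2 had 35.9, 188 and 219 in A549 and 287, 557 and 555 in BEAS-2B cells. Both were called higher in A549 cells at both doses, and in every A549 library they stayed below untreated BEAS-2B cells. At 5 ng/mL the A549 ratios were 2.40 (1.96 to 2.95) for COL6A1 and 6.09 (4.18 to 9.16) for COL6A2, and the BEAS-2B ratios were 1.68 (1.56 to 1.81) and 1.94 (1.66 to 2.27), below the FC minimum. With upper quartile scaling COL6A2 was called higher in BEAS-2B cells as well. COL6A3, which encodes the large chain of the type VI trimer, had 0, 51 and 9 raw counts in A549 and 2, 5 and 7 in BEAS-2B cells. With the control count of 0 taken as 3, its A549 level was 10.1-fold higher at 1 ng/mL and 2.35-fold higher at 5 ng/mL. The exact intervals of COL6A3 began at 7.91-fold and 1.55-fold. Its 51 counts were in the A549 library that also held the highest DCN count.

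FACIT collagens (fibril-associated collagens with interrupted triple helices) sit on the surface of fibrils. COL22A1, known from tissue junctions such as that of muscle and tendon, had 0, 491 and 609 raw counts in A549 cells, or normalized counts of 0, 337 and 553. It was at least 97.1-fold higher than control at 1 ng/mL and at least 159-fold higher at 5 ng/mL. BEAS-2B cells had 1, 8 and 10 raw counts of it, and the ratio of 11.3 at 5 ng/mL had an interval of 1.61 to 490. COL16A1, a minor FACIT chain, had normalized counts of 13.9, 8.24 and 0 in A549 cells and 12.3, 177 and 108 in BEAS-2B cells. The 2 lines started at like levels and parted with treatment. In BEAS-2B cells the ratios were 14.4 (7.83 to 29.4), called, and 8.83 (4.70 to 18.3), not called because of the ND minimum. In A549 cells the raw counts were 12, 12 and 0, and the level at 5 ng/mL was at least 5.11-fold lower than control.

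COL18A1 encodes a multiplexin of basement membranes whose end fragment is endostatin. It had normalized counts of 455, 1124 and 1246 in A549 and 116, 194 and 204 in BEAS-2B cells. Untreated A549 cells thus held more of it than treated BEAS-2B cells, the reverse of COL1A1 and COL6A1. The A549 ratios were 2.47 (2.21 to 2.76) and 2.74 (2.44 to 3.07), and those in BEAS-2B cells, 1.67 and 1.76, were below the FC minimum.

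COL8A1 was the 1 collagen gene called lower against control in any comparison. It encodes a short-chain collagen that forms hexagonal networks, as in the matrix of blood vessels and the cornea. BEAS-2B cells had 930, 91 and 62 raw counts, or normalized counts of 1037, 102 and 78.1, and A549 cells had 1, 10 and 0 raw counts. The treated BEAS-2B libraries were lower than control by 10.1-fold (8.16 to 12.7) and 13.3-fold (10.3 to 17.5). COL8A2, its partner chain, had 21, 19 and 18 raw counts in BEAS-2B cells. COL13A1, a transmembrane collagen of cell contacts, had 81, 33 and 18 raw counts in BEAS-2B cells, under the ND minimum, and was lower than control by 2.43-fold (1.60 to 3.77) and 3.98-fold (2.37 to 7.06).

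**Figure D4:**
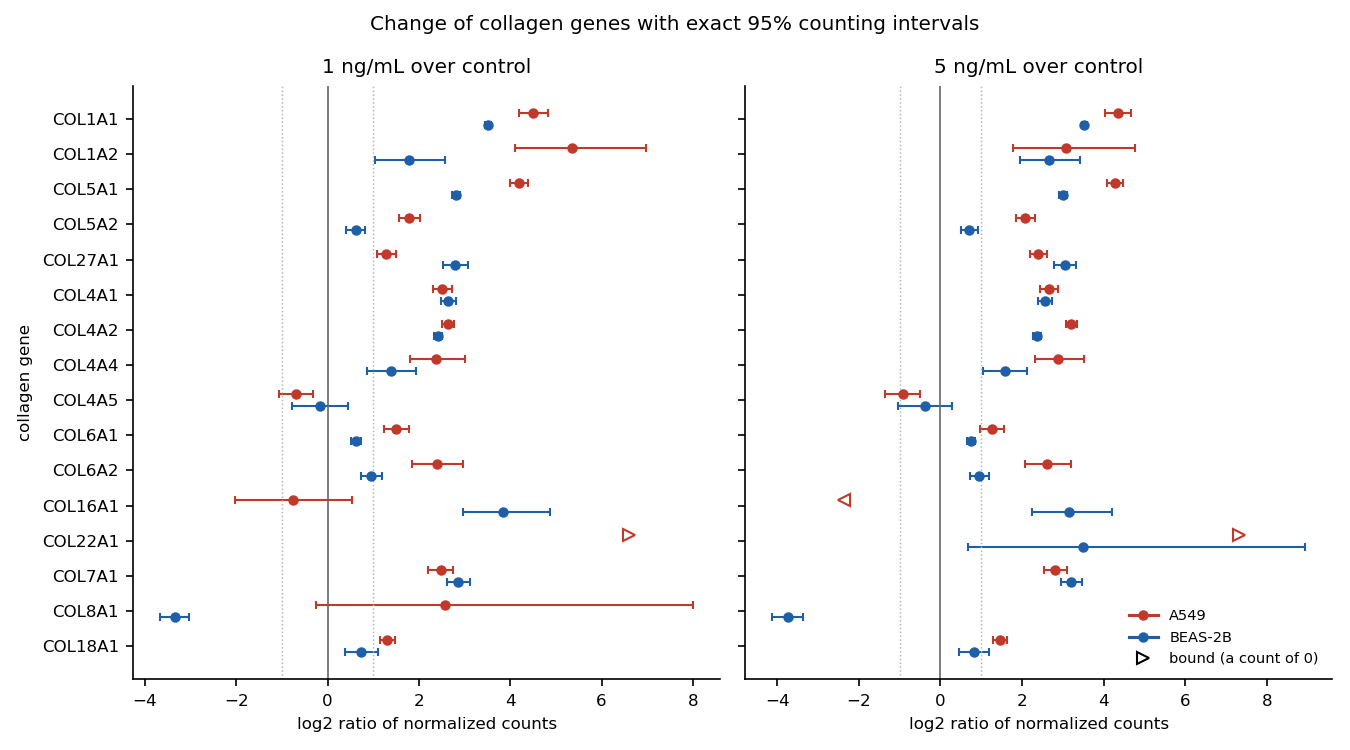
Log2 ratio of normalized counts to the control of the same line for the 16 genes at 1 ng/mL (left) and 5 ng/mL (right), with A549 in red, BEAS-2B in blue, bars for exact 95% counting intervals, dotted lines at a ratio of 2 in either direction and open triangles for bounds where a count was 0. Genes with fewer than 10 counts in both libraries are not drawn. At either dose the COL8A1 point of BEAS-2B cells lies farthest to the left and the COL22A1 bound of A549 cells farthest to the right.

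The remaining entries were low. Of the 50, 16 had an ND value of at least 7 in at least 1 library and 11 held 0 counts in every library, namely COL6A5, COL9A1, COL19A1, COL24A1 and COL25A1 and 6 of the COL11A2 entries. The other 23 entries reached at most 152 counts (COL11A1), and 10 of them had at most 10 counts in every library. For the 5 genes with 0 counts throughout, a library's count of 0 allows up to 3 counts, or 0.383 to 0.728 CPM (counts scaled to a common total). They were not detected at this depth. COL11A2 did hold reads in its remaining entry, with 3, 8 and 7 raw counts in A549 and 1, 0 and 7 in BEAS-2B cells. Among the 23, COL20A1, a FACIT chain under the ND minimum, had 4, 103 and 72 raw counts in A549 cells, 15.3-fold (5.79 to 57.1) and 14.1-fold (5.27 to 53.1) above control. COL12A1, a FACIT chain that often accompanies type I fibrils, had 22, 17 and 7 raw counts in A549 and 30, 8 and 13 in BEAS-2B cells.

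The size of the change was compared between the lines for the 13 genes at each dose that had at least 10 counts in all 4 libraries, as the A549 ratio divided by the BEAS-2B ratio. At 5 ng/mL the A549 ratio was larger beyond counting error for 9 genes. COL4A3 (4.91, 1.80 to 13.4), COL6A2 (3.14, 2.10 to 4.71), COL5A2 (2.60, 2.11 to 3.20) and COL4A4 (2.48, 1.46 to 4.22) had the 4 highest quotients. COL5A1 had 2.41 (2.07 to 2.79) and COL1A1 1.76 (1.41 to 2.19). COL27A1 (0.632, 0.502 to 0.795) and COL7A1 (0.760, 0.591 to 0.978) had the larger ratio in BEAS-2B cells. For COL4A1 the quotient was 1.07 (0.886 to 1.29) and for COL4A5 0.682 (0.407 to 1.14), so these intervals held 1. At 1 ng/mL 8 genes were larger in A549 and 3 in BEAS-2B cells, namely COL7A1, COL27A1 and COL16A1 (0.0412, 0.0150 to 0.113). The spread between cultures is unknown in either line, so these quotients compare 4 libraries and not the lines. The same count was not made over all entries, so a larger A549 ratio cannot be read as particular to collagen genes. At 5 ng/mL 4.45% of all entries were called higher in A549 and 1.92% in BEAS-2B cells, and 4.74% and 3.04% were called lower.

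The step from 1 to 5 ng/mL does not use the control library. In A549 cells COL27A1 was called higher at 5 than at 1 ng/mL and COL1A2 lower, 1 entry each, where 0.404% and 0.451% of all entries were called. The COL27A1 ratio was 2.14 (1.97 to 2.33), and COL1A2 was 4.81-fold (3.60 to 6.53) lower. In BEAS-2B cells 0 collagen entries were called in either direction, against 0.12% of all entries higher and 0.101% lower. Counting intervals lay above 1 for 9 of the 16 genes in A549 cells, among them COL4A2 (1.48, 1.43 to 1.53), COL22A1 (1.64, 1.45 to 1.85) and COL4A4 (1.43, 1.19 to 1.71), and below 1 for 5, among them COL1A1 (0.897, 0.850 to 0.946). In BEAS-2B cells they lay above 1 for 5 genes, led by COL1A2 (1.83, 1.34 to 2.51), and below 1 for 2, COL16A1 (0.613, 0.466 to 0.803) and COL4A2 (0.959, 0.923 to 0.997). For COL1A1 the BEAS-2B ratio was 1.01 (0.992 to 1.03). COL5A1 had a ratio above 1 in both lines, 1.05 (1.02 to 1.09) and 1.14 (1.10 to 1.17). Such intervals were not counted over all entries. The 16 genes were picked by an ND value of 7 in any library, the compared ones included.

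**Figure D5:**
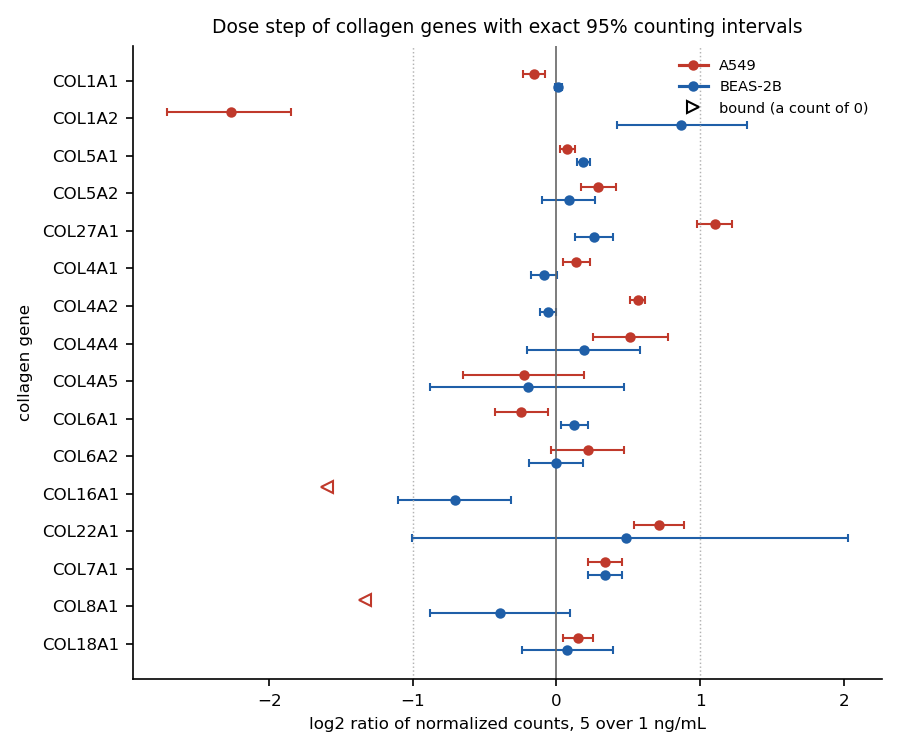
Log2 ratio of normalized counts at 5 over 1 ng/mL for the 16 genes, with A549 in red, BEAS-2B in blue, bars for exact 95% counting intervals, dotted lines at a ratio of 2 in either direction and open triangles for upper bounds where the count at 5 ng/mL was 0. COL27A1 and COL1A2 stand outside the dotted lines in A549 cells, as do the bounds of COL16A1 and COL8A1 there, which rest on 12 and 10 counts at 1 ng/mL.

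Genes that make, cut, bind or degrade collagen were counted at 5 ng/mL, where 4.45% of all entries were called higher and 4.74% lower in A549 cells, and 1.92% and 3.04% in BEAS-2B cells. Of 17 hydroxylases and folding factors, which modify and chaperone new chains, 3 were called higher and 2 lower in A549 and 5 higher and 1 lower in BEAS-2B cells. P3H3, a prolyl 3-hydroxylase family member, had ratios of 3.07 (2.26 to 4.24) and 2.19 (1.76 to 2.75), and FKBP10, a collagen-folding prolyl isomerase, 2.29 (1.999 to 2.63) and 3.01 (2.47 to 3.70). Of 8 genes for propeptide cleavage, BMP1, which removes the C-terminal propeptide of fibrillar collagens, was called higher in both lines, with ratios of 5.70 (4.57 to 7.19) and 2.61 (2.23 to 3.06), and 0 were called lower. Of 5 cross-linking genes, 0 were called higher in either line and 1 was called lower in BEAS-2B cells.

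Of 7 collagen receptors, 3 were called higher in A549 and 2 in BEAS-2B cells, beside 4.45% and 1.92% of all entries. ITGA11, the alpha chain of a receptor for fibrillar collagen, was called in both. It had 4, 239 and 357 raw counts in A549 and 0, 1621 and 1353 in BEAS-2B cells, so that its BEAS-2B control held no read. Of 8 genes for collagen degradation, 2 were called higher in A549 and 3 in BEAS-2B cells. MMP2, a gelatinase, had ratios of 73.8 (38.7 to 162) and 12.8 (11.0 to 15.0), and MRC2, an uptake receptor for collagen, 2.53 (2.27 to 2.83) and 2.57 (2.39 to 2.77). The 16 hydroxylase and folding entries above the level filter had a median log2 FC of 0.21 and 0.47 at 5 ng/mL. The medians of the other lists rest on 4 or 5 entries each. They were 1.80 and 0.35 for propeptide cleavage and 0.91 and -0.49 for cross-linking. Receptors had 1.44 and 1.06 and degradation genes 1.47 and 3.67. An entry can pass the level filter through any library, so these medians were not ranked against the collagen genes. MMP14 entered the A549 median with 2 and 9 raw counts at 0 and 5 ng/mL. MMP1 and MMP9 entered the BEAS-2B median with 0 and 1 raw counts in the control and 10 and 43 at 5 ng/mL.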

How the data were processed

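The processed data are whole-number counts per gene that the authors deposited, 1 table per library and 1 library per condition. Libraries were prepared with a QuantSeq 3′ kit, which reads mRNA ends. Per the submitters' processing notes Bowtie2, bedtools and the hg19 build were used, and the study names ExDEGA for its own DEG analysis. Versions, annotation and strand setting are not given in the sources used here, and no per-sample columns of other samples were present.

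Counts were scaled by TMM factors from edgeR 4.0.16 in R 4.3.3 over all 25737 entries and 6 libraries. The FC used a pseudocount of 1, while printed ratios use none and are therefore slightly larger for low genes. Calls needed an FC of 2 or more and an ND value of 7 or more in either compared library. Both minimums are those of the study, which does not say in which library its ND minimum applied. At 5 ng/mL 1146 entries were called higher and 1220 lower in A549, and 494 and 783 in BEAS-2B cells. The study reports fewer genes for each line. Ratio intervals are exact Clopper-Pearson intervals and level intervals are exact Poisson, both at 95%. Quotients of ratios between lines carry normal-approximation intervals on the log scale. A count of 0 was taken to allow 3 counts in bounds, and such bounds take the other count as exact. The exact intervals also cover the error of that other count and so reach nearer to a ratio of 1. Without molecular identifiers, PCR copies cannot be told from separate molecules, so intervals cover counting error only. edgeR and DESeq2 tests were not run, since no condition had a replicate.

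Genes that reached an ND value of 7 in any library were described in full, and others by counts. The collagen genes, their classes and the other lists were chosen with earlier results of these data known. Alternatives covered DESeq2 1.42.0 size factors, total counts, upper quartile factors, TMM within each line, thinned libraries, pseudocounts, and other FC and ND minimums. Promoter sequences came from a RefSeq table of GRCh38.p14, which is not the build of the counts, so its positions describe the printed stretches and the distances between starts, not the counted intervals. The scripts were tested on simulated data. Figures were drawn with matplotlib 3.10.9 in Python 3.11.15, with numpy 2.4.6, pandas 2.3.3 and scipy 1.17.1.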

Additional observations from a re-analysis of the deposited data

Results flagged for a closer look

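COL16A1 and COL9A3 had log2 FC values of opposite sign in the 2 cell lines at both doses. The difference between the lines has no replicate test, and the quotient of ratios, which covers counting error only, could be had for COL16A1 at 1 ng/mL alone (0.0412, 0.0150 to 0.113). COL16A1 had a log2 FC of -0.69 and -3.90 at 1 and 5 ng/mL in A549 cells, from 12, 12 and 0 raw counts, and of 3.74 and 3.04 in BEAS-2B cells, from 11, 157 and 86. COL9A3, a FACIT chain of cartilage, had a log2 FC of 1.05 and 1.95 in A549 cells, from 3, 12 and 18 raw counts, and of -0.24 and -0.77 in BEAS-2B cells, from 18, 15 and 9, so that both signs rest on fewer than 20 counts per library. At 1 ng/mL the counting intervals of the ratio held 1 for COL16A1 in A549 cells (0.244 to 1.44) and for COL9A3 in A549 cells (0.640 to 13.1) and BEAS-2B cells (0.394 to 1.77), and at 5 ng/mL for COL9A3 in BEAS-2B cells (0.223 to 1.32).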

How the results depend on the processing

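No paired analysis was possible because the labels carry no replicate numbers and each condition is 1 library, and for the same reason no library could be left out. The 16 genes described in full had 42 calls against control, and 336 values under other scalings, pseudocounts, a low-count filter or thinned libraries, with the minimums kept. Of these, 0 turned in sign and 3 calls ended, all in libraries thinned to the smallest total (COL4A4 at 1 ng/mL for A549 and COL4A4 and COL1A2 at 5 ng/mL for BEAS-2B cells). Among the same 16 genes 3 more calls were made, COL4A5 lower in A549 cells at 5 ng/mL under total counts and COL6A2 higher in BEAS-2B cells at both doses under upper quartile factors. Scaling by total counts shifted the median log2 FC of all entries to -0.11 and -0.18 in A549 cells and -0.12 and -0.12 in BEAS-2B cells at 1 and 5 ng/mL.

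Where both libraries had to reach an ND value of 7, A549 cells at 1 ng/mL had 8 higher calls instead of 13, the lower call of COL8A1 in BEAS-2B cells became 0 at both doses, and the lower COL1A2 call of the A549 dose step became 0, as it did with an ND minimum of 8. Under that rule COL1A1 (A549 control ND value of 6.67), COL4A4 (5.01), COL6A2 (5.21) and COL22A1 (0) lost their A549 calls at both doses. COL1A1 thereby left the genes called higher in all 4 comparisons with control. These changes are to the rule that asks for both libraries. With a minimum of 6, A549 cells had 1 lower call (COL4A6) at each dose and BEAS-2B cells 2 (COL8A1 and COL13A1). Total counts gave 1 lower call in A549 cells at 1 ng/mL (COL4A6) and 2 at 5 ng/mL. An FC minimum of 1.5 gave 1 lower call (COL4A5) in A549 cells at each dose, 2 higher calls in the A549 dose step (0 at a minimum of 3), 11 higher calls at 1 ng/mL in BEAS-2B cells, and 1 higher (COL1A2) and 1 lower (COL16A1) in the BEAS-2B dose step.

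The log2 ratio of the summed collagen counts moved from 2.57 to 2.41 in A549 cells at 1 ng/mL and from 2.82 to 2.62 at 5 ng/mL under total counts. In BEAS-2B cells it moved from 2.55 to 2.42 and from 2.60 to 2.47 under total counts and to 2.62 and 2.67 under upper quartile factors. The A549 dose step of the sum, 0.25, became 0.29 with DESeq2 size factors, 0.21 with total counts, 0.29 with upper quartile factors and 0.28 in thinned libraries. The cause of these shifts was not tested. The sum without COL1A1 and the alternatives for the dose step were chosen after seeing the data. Depth limits genes near the ND minimum, where COL1A2, COL4A4 and COL16A1 pass or miss it by a narrow margin.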
